A study of Danio rerio with 13 samples.

Results

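The zebrafish opioid peptide genes penka (proenkephalin a, ENSDARG00000004869), penkb (proenkephalin b, ENSDARG00000036045) and pnoca (prepronociceptin a, ENSDARG00000025024) were followed in 13 RNA-seq libraries. They were chosen by name, with earlier results of these data known, and they are 3 of the 31901 genes in the count tables. Of these 3 members, all had counts in each of the 13 libraries. All of them passed the filter on low counts in each of the 5 comparisons made below.

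The libraries came from endocrine cells of the pancreas and of the gut, with and without the transcription factor Pax6b. Pancreatic endocrine cells (PECs) were taken from the dorsal pancreatic bud at 27 hours post fertilization (hpf), and enteroendocrine cells (EECs) from the gut at 4 days post fertilization (dpf). All fish were of strain AB and carried the transgene Tg(pax6b:GFP)ulg515, in which pax6b regulatory sequence drives GFP, so the cells studied are those that had GFP after 2 rounds of sorting. Each library stands for cells pooled from many animals. The mutants, labelled Pax6b-/-, were homozygous for the null allele pax6b sa0086 and were picked from crosses of carriers by their abnormal lens. There were 3 libraries of wild-type PECs, 3 of mutant PECs, 4 of wild-type EECs and 3 of mutant EECs. The comparisons used replicates 1 to 3 of each group, while levels are given for all 13. Organ, age and dissociation enzymes differ together between PECs and EECs, so their parts in a tissue difference cannot be told apart.

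Opioid peptides are cut from larger precursor proteins inside secretory granules. Proenkephalin yields enkephalins, prodynorphin yields dynorphins and prepronociceptin yields nociceptin. Enkephalins act mainly at the delta and mu receptors, dynorphins at the kappa receptor and nociceptin at its own receptor, and all of these receptors couple to inhibitory Gi/o proteins. In mammals, opioid peptides in the gut are best known from enteric neurons, where they slow motility and secretion, and opioid receptors also occur on islet cells. Zebrafish keep duplicate copies of several of these genes, which end in a and b.

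Total counts per library ran from 22423938 to 61895597, and 3 counts, the lowest level taken as detected, was 0.0485 to 0.134 CPM. The unit CPM scales a gene's count by the total of its library, which makes libraries of different depth comparable. The defining markers of each labelled cell type were present. The summed level of 10 PEC markers was 67363 to 79964 CPM in wild-type PECs against 1793 to 3235 CPM in wild-type EECs, and that of 10 EEC markers was 2063 to 3029 CPM against 45216 to 56234 CPM. In the mutants these sums were lower in their own tissue. They were 15294 to 20540 CPM for PEC markers in PECs and 17254 to 19598 CPM for EEC markers in EECs. The largest part of the wild-type EEC sum was pyyb, at a mean of 28945 CPM in wild-type and 3199 CPM in mutant EECs. At an adjusted p under 0.1 in the edgeR tests below, 2 EEC markers rose and 3 fell in EECs. In PECs 1 PEC marker rose and 7 fell. Among all genes tested, 4.18% were called in EECs and 11.2% in PECs. neurod1 is in both lists. Reads on pax6b were still counted in mutants, at 3199 to 7529.5 CPM in PECs and 1028 to 1473 CPM in EECs. Wild-type PECs had 2509 to 5086 CPM and wild-type EECs 466 to 807 CPM. In the edgeR tests below, pax6b was called higher in mutant EECs (1.03 ± 0.22, adjusted p = 0.0278) and not called in PECs (adjusted p = 0.934). The level of this gene thus does not check the genotype labels. The study reports a check by sequence instead, with every pax6b read of the mutants carrying the null allele. In bulk samples such as these, fewer cells that make a transcript and less of it in each cell cannot be told apart.

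penka had its highest levels in the gut. Its level in wild-type EECs was 5158 CPM in replicate 1, 12879.7 CPM in replicate 2, 11306.7 CPM in replicate 3 and 16273 CPM in replicate 4, with a mean of 11404 ± 4652 CPM (SD, n = 4). In mutant EECs it was 4357, 5735 and 1742 CPM in replicates 1 to 3. Wild-type replicate 1 lies below mutant replicate 2, so the groups overlap. In PECs the gene was low. Wild-type PECs had 0.677, 2.77 and 0.0969 CPM, which are 26, 81 and 6 counts, and mutant PECs had 3.44, 4.81 and 10.1 CPM, which are 120, 117 and 278 counts. The lowest EEC library thus held far more penka than any PEC library, and the mutant PECs did not overlap the wild-type PECs.

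penkb, the second proenkephalin gene, was low in all wild-type libraries and higher in both kinds of mutant cell. In wild-type PECs it had 0.443, 0.342 and 0.743 CPM, from 17, 10 and 46 counts. In mutant PECs it had 4.32, 11.5 and 2.78 CPM, from 151, 279 and 77 counts. Every mutant PEC library was above every wild-type one. Wild-type EECs had 2.96, 2.83, 0.226 and 2.01 CPM, where replicate 3 rested on 7 counts. Mutant EECs had 21.4, 18.4 and 15.3 CPM, the tightest of the 4 groups, with a mean of 18.4 ± 3.04 CPM (SD, n = 3), and again without overlap with the wild type.

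pnoca varied more between replicates than the enkephalin genes did in most groups. Wild-type PECs had 29.0 CPM in replicate 1, 11.9 CPM in replicate 2 and 342.5 CPM in replicate 3, so the highest library was 28.7 times the lowest. Mutant PECs had 9.05, 7.60 and 17.1 CPM. The wild-type and mutant PECs overlap, because wild-type replicate 2 lies below mutant replicate 3. Wild-type EECs had 9.62, 18.1, 2.39 and 53.5 CPM, a 22.4-fold range, and mutant EECs had 4.05, 0.780 and 0.803 CPM, also with an overlap.

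**Figure D1:**
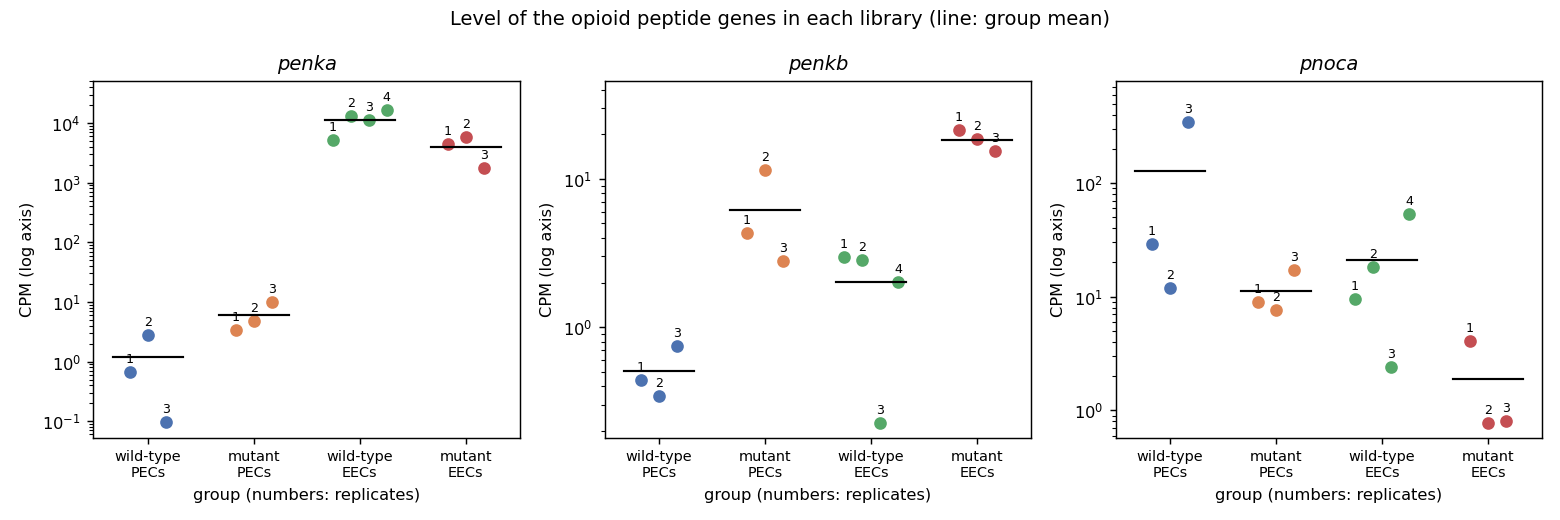
Level in CPM (log axis) of penka, penkb and pnoca in each library of wild-type and mutant PECs and EECs, with replicate numbers over the points and the group mean as a line. penka lies between 1742 and 16273 CPM in the EECs and at or below 10.1 CPM in the PECs, penkb is higher in both mutant groups, and wild-type PEC replicate 3 stands alone at 342.5 CPM of pnoca.

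By group means, penka ran from wild-type EECs (11404 CPM) over mutant EECs (3945 CPM) and mutant PECs (6.10 CPM) to wild-type PECs (1.18 CPM). The 2 EEC groups overlap in this order. penkb ran from mutant EECs (18.4 CPM) over mutant PECs (6.19 CPM) and wild-type EECs (2.01 CPM) to wild-type PECs (0.509 CPM), with an overlap between mutant PECs and wild-type EECs and between the 2 wild-type groups. pnoca ran from wild-type PECs (128 CPM) over wild-type EECs (20.9 CPM) and mutant PECs (11.3 CPM) to mutant EECs (1.88 CPM), and all neighbours in that order but the last pair overlap among their libraries.

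Loss of pax6b in PECs was tested first. penkb rose by 3.39 ± 0.61 on the log2 scale (fold change with its standard error), which is 10.5-fold, with an adjusted p of 0.00384 in edgeR's quasi-likelihood test after Benjamini-Hochberg adjustment over all tested genes. pnoca fell by 3.53 ± 0.87 (adjusted p = 0.0238). penka differed by 2.03 ± 0.88, which did not pass (adjusted p = 0.209), although its 3 mutant libraries were all above the wild type. Of the 18698 genes tested, 11.2% were called at an adjusted p under 0.1 (5.43% higher and 5.74% lower), and 24.6% had groups that did not overlap (16.1% with the mutants higher, as for penka and penkb).

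Single libraries bear on these PEC results. The rise of penkb was called in each of the 6 fits that left out 1 library, with adjusted p-values of 0.00516 to 0.0268, and was smallest without mutant replicate 2 (2.59, the adjusted p of 0.0268). The size of the fall of pnoca rests on wild-type replicate 3: without it the change was -1.21 (adjusted p = 0.0882). The call was lost without wild-type replicate 1 (adjusted p = 0.142), mutant replicate 1 (0.183) or mutant replicate 2 (0.221), with changes of -3.98, -3.39 and -3.35. penka was called only without wild-type replicate 2, at 3.77 (adjusted p = 0.0244), and over its 12 alternatives the adjusted p ran from 0.0244 to 0.527.

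Wild-type PEC replicate 3 differed in other hormone genes too. It had 2655 CPM of gcga, a proglucagon gene, against 967 and 890 CPM in replicates 1 and 2. It also had 102 CPM of arxa against 36.5 and 33.1 CPM. The study places this transcription factor gene in alpha cells and in epsilon cells, which make ghrelin. gcgb, the second proglucagon gene, was at 11320.2, 9584 and 16399 CPM in the 3 wild-type libraries and at 19.7, 47.9 and 37.2 CPM in mutant PECs, where it fell by 8.68 ± 0.46 (adjusted p = 5.80e-07). arxa rose by 1.91 ± 0.33 (adjusted p = 0.00319), while gcga, at 2892, 2956 and 3546 CPM in the mutants, did not pass (0.91 ± 0.33, adjusted p = 0.131). pnoca, gcga and arxa were thus all at their wild-type maximum in the same library. This was not limited to these genes. The somatostatin gene sst1.1 was at 1170 CPM in that library against 384 and 175 CPM in replicates 1 and 2. Of the other PEC markers, ins, gcgb, nkx6.2, isl1 and neurod1 were also highest there, sst2 and mnx1 were lowest, and sst1.2 was in between. The part of that library's makeup in the pnoca result was not tested.

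Loss of pax6b in EECs was tested in the same way. penkb rose by 3.14 ± 0.67, which is 8.83-fold (adjusted p = 0.0309). pnoca differed by -2.44 ± 0.79 (adjusted p = 0.161) and penka by -1.36 ± 0.50 (adjusted p = 0.256), neither of which passed. Of the 18676 genes tested, 4.18% were called (1.82% higher and 2.36% lower), and 20.4% had groups that did not overlap (12.2% with the mutants higher, as for penkb). With DESeq2 as the test, both penka (-1.35, adjusted p = 0.0547) and pnoca (-2.42, adjusted p = 0.0124) were called.

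penkb was called in each of the 6 EEC fits without 1 library (2.64 to 3.55, adjusted p-values of 0.00372 to 0.0865). pnoca was called without wild-type replicate 3 (-2.88, adjusted p = 0.0850) and without mutant replicate 1 (-3.70, adjusted p = 0.0251), and without wild-type replicate 2 it was at -1.73 (adjusted p = 0.355). With all 4 wild-type libraries it was at -3.59 (adjusted p = 0.190). penka was not called in any of these 6 fits, where the change ran from -1.76 to -0.98.

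**Figure D2:**
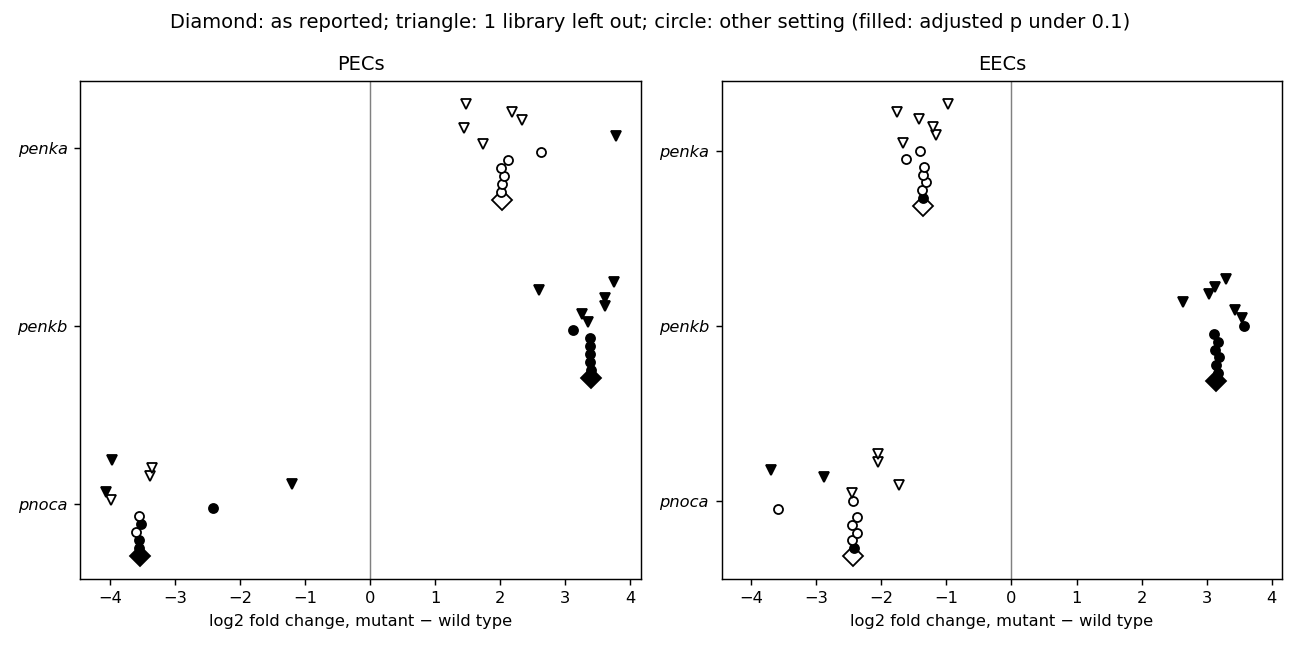
Log2 fold change of each gene, mutant against wild type, in PECs (left) and EECs (right) as reported (diamond), with 1 library left out (triangles) and under the other settings (circles), filled where the adjusted p was under 0.1. All symbols of penkb are filled and lie above 2.5, while pnoca lies between -4.06 and -1.21 in PECs and changes between filled and open in both tissues.

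Markers of other cells were compared beside penkb. The summed level of 11 enteric neuron markers was 333 to 500.4 CPM in wild-type EECs and 616 to 690.2 CPM in mutant EECs, and 403 to 438 CPM in wild-type PECs and 528 to 670 CPM in mutant PECs. In EECs most of the sum was ret, a receptor gene that is not limited to neurons, at 273 to 459 CPM in wild-type and 532 to 600.3 CPM in mutant EECs. In PECs ret was at 144 to 188 CPM in wild type and 264 to 326 CPM in mutants, and its change after pax6b loss was called in neither tissue (adjusted p = 0.296 in EECs and 0.137 in PECs). Of the 9 markers tested in each tissue, only adcyap1b, a neuropeptide gene, was called higher, in EECs (2.76 ± 0.31, adjusted p = 7.39e-04) and in PECs (4.22 ± 0.47, adjusted p = 1.14e-04). The shares called higher over all genes tested were 1.82% in EECs and 5.43% in PECs. The median change of the 9 was 0.98 in EECs and 0.26 in PECs, against 0.02 over all genes in each. Without mutant EEC replicate 1 the EEC median was -0.14. In EECs 4 of the 9 had an unadjusted p under 0.05 in edgeR, and DESeq2 called 2. In PECs elavl4, a neuronal RNA-binding protein gene, fell by 1.65 ± 0.26 (adjusted p = 0.00146). The neuronal transcription factor genes phox2bb and hand2 were at 0.960 and 0.480 CPM in mutant EEC replicate 2 and at 1.03 and 0.401 CPM in replicate 3, where penkb was at 18.4 and 15.3 CPM, but at 7.85 and 7.21 CPM in replicate 1. Wild-type EECs had 0.0323 to 2.42 CPM of phox2bb and 0.0646 to 1.22 CPM of hand2. Other markers of the list, elavl3 and prph, were at 7.35 and 2.16 CPM in mutant EEC replicate 2 and at 5.35 and 3.92 CPM in replicate 3. Wild-type EECs had 0.619 to 6.29 CPM of elavl3 and 0.259 to 2.83 CPM of prph. Not all markers were higher in mutants: elavl4 was at 22.41 to 32.16 CPM in wild-type and 10.80 to 22.43 CPM in mutant EECs. Without mutant EEC replicate 1, penkb was at 3.03 (adjusted p = 0.0684). The vip gene was at 0 in mutant EEC replicate 2 and in all mutant PECs, but at 3.51 CPM in mutant EEC replicate 1. Wild-type EECs had at most 0.619 CPM of vip. phox2a, a further marker of the list, was at 0.194 to 9.01 CPM in wild-type and 2.05 to 22.1 CPM in mutant EECs. In PECs phox2a was at 1.33 to 34.5 CPM in wild type and 11.8 to 86.9 CPM in mutants. The cells were sorted by the pax6b transgene, which the study describes as silent in enteric neurons. The staining behind that statement names no mutant larvae, and whether neurons passed the sort was not tested. A part of neurons in the rise of penkb was not tested beyond these values.

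The same replicate, mutant EEC 1, also held the most enterocyte transcript. fabp2, a fatty acid binding protein gene of enterocytes, was at 285 CPM there against 39.0 and 34.0 CPM in the other two, and the 7 enterocyte markers summed to 902 to 1739 CPM in mutant EECs and 1165 to 1640.4 CPM in wild-type EECs. The largest part of that sum was vil1, at a mean of 1145 CPM in wild-type and 803 CPM in mutant EECs. The median change of the 7 was 1.31 against 0.02 over all genes, and -0.52 without mutant EEC replicate 1. None of the 7 was called in EECs with edgeR or DESeq2, and 1 had an unadjusted p under 0.05 in edgeR. Over all genes tested in EECs, edgeR called 4.18%, so no call among 7 genes says little. The same library was also the mutant EEC library with the highest pnoca, 4.05 CPM.

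The tissues were then compared within each genotype. penka was higher in EECs than in PECs by 13.00 ± 1.36 in wild type (adjusted p = 1.25e-04) and by 9.54 ± 0.66 in mutants (adjusted p = 2.84e-06). The wild-type value depends on the few counts in PECs: without wild-type PEC replicate 2 it was 14.79, and without replicate 3 it was 12.36. In wild type 34.2% of 19302 genes were called (18.4% higher and 15.8% lower in EECs), and in mutants 40.3% of 18853 (21.0% higher and 19.3% lower in EECs), so called tissue differences were common among all genes.

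penkb was higher in mutant EECs than in mutant PECs by 1.74 ± 0.48 (adjusted p = 0.0170), and by 2.54 without mutant PEC replicate 2. In wild type its difference of 2.01 ± 0.89 did not pass (adjusted p = 0.118), but it did without EEC replicate 3, the library with 7 counts (2.51, adjusted p = 0.00966). The gene pnoca went the other way. Its difference, EECs minus PECs, was -3.46 ± 1.21 in wild type (adjusted p = 0.0720) and -2.38 ± 0.65 in mutants (adjusted p = 0.0151). The wild-type difference was -1.16 without PEC replicate 3 (adjusted p = 0.225), and it also missed the threshold without PEC replicate 1 (-3.92, 0.179), without EEC replicate 1 (-3.45, 0.124) and with all 4 wild-type EEC libraries (-2.30, 0.221). The mutant difference was called in all 6 fits without 1 library, from -3.64 without EEC replicate 1 to -1.96 without EEC replicate 3.

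Whether the effect of pax6b loss differed between gut and pancreas was tested as an interaction, the change in EECs minus the change in PECs, in a fit of 12 libraries. None of the 3 genes passed in edgeR, where 3.58% of 21067 genes did. penka was the only one of them at an unadjusted p under 0.05 in edgeR and the only one called by DESeq2. For penka the difference was -3.46 ± 1.26 (adjusted p = 0.253), with mutant libraries above the wild type in PECs and a mean below it in EECs. It was called with DESeq2 (-3.39, adjusted p = 0.0439) and without wild-type PEC replicate 2 (-5.19, adjusted p = 0.0315). For penkb the difference was -0.21 ± 0.91 (adjusted p = 0.958), an SE that leaves room for a sizeable difference in either direction. For pnoca it was 1.19 ± 1.56 (adjusted p = 0.825), and its sign turned without wild-type PEC replicate 3 (-1.18) or mutant EEC replicate 1 (-0.11).

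**Figure D3:**
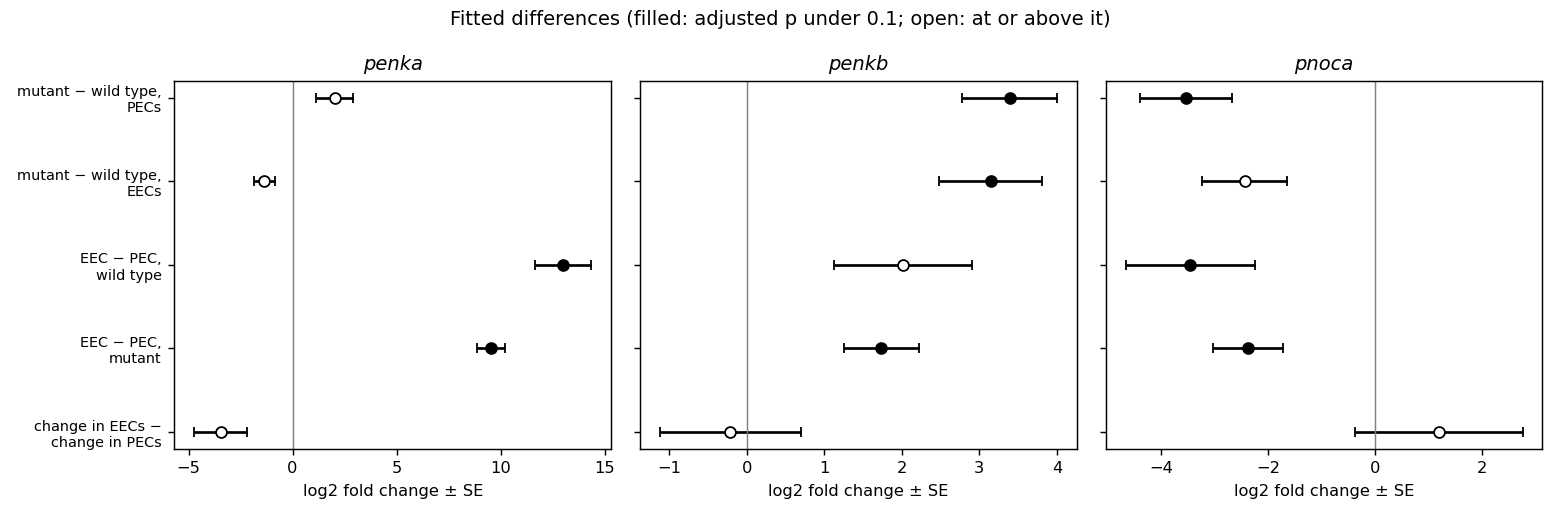
Fitted log2 differences with their standard errors for penka, penkb and pnoca in the 5 comparisons (each panel has its own scale), filled where the adjusted p was under 0.1. penkb is above 0 with a filled symbol for pax6b loss in PECs (3.39) and EECs (3.14), penka is filled only in the tissue comparisons (13.00 and 9.54), and no gene is filled for the interaction.

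The share of the 2 proenkephalin genes in each other's sum was compared within each library, which does not depend on library size. In wild-type EECs penkb was 0.0573%, 0.0219%, 0.00200% and 0.0124% of the penka and penkb counts together. In mutant EECs it was 0.488%, 0.321% and 0.870%. Every mutant EEC library was above every wild-type one. The log2 ratio of penkb to penka counts (0.5 added to each) rose from -12.81 ± 2.44 to -7.59 ± 0.73 (SD, n = 3 each), a difference of 5.21 with an exact two-sided permutation p of 0.1, which is the smallest that 3 against 3 libraries allow. With all 4 wild-type libraries the exact permutation p was 0.0571, again the smallest possible.

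In PECs the same ratio had no order by genotype. penkb was 39.5%, 11.0% and 88.5% of the counts of both genes in wild type, and 55.7%, 70.5% and 21.7% in mutants. The mean log2 ratio was -0.24 ± 2.91 in wild-type and -0.09 ± 1.59 in mutant PECs (SD, n = 3 each), with an exact two-sided permutation p of 1. The wild-type shares rest on 43 to 91 counts of both genes together.

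**Figure D4:**
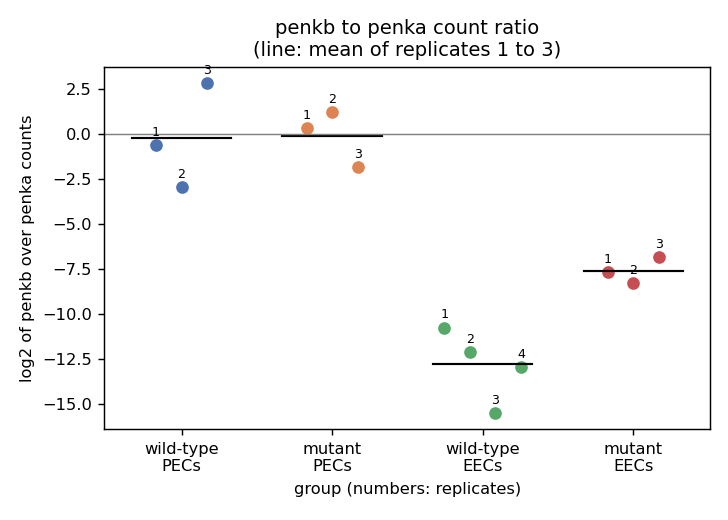
Log2 ratio of penkb to penka counts in each library, with replicate numbers and the mean of replicates 1 to 3 as a line. The 3 mutant EEC libraries (mean -7.59) lie above the 4 wild-type EEC libraries, while wild-type and mutant PECs both scatter around 0.

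The other precursor genes showed how far these patterns reached in the family of 7. In PECs 5 of the 7 were tested, of which 2 rose (penkb and pdyn) and 2 fell (pnoca and pnocb). Among all genes tested, 5.43% were called higher and 5.74% lower. The median change of the 5 was 2.03 against 0.02 over all genes tested. That median is the change of penka, which was not called, between 2 rises and 2 falls. pdyn, the dynorphin precursor, had 4.32, 3.18 and 7.40 CPM in wild-type PECs and 31.4, 10.2 and 51.8 CPM in mutant PECs, a rise of 2.46 ± 0.50 (adjusted p = 0.00810). pnocb, the second prepronociceptin gene, had 4.12, 12.4 and 30.0 CPM in wild-type PECs and 0.601, 0.329 and 0.687 CPM in mutants, where it fell by 4.97 ± 0.64 (adjusted p = 3.69e-04). The groups of both genes did not overlap. Such a lack of overlap was seen in PECs for 24.6% of all genes tested (16.1% with the mutants higher). Unlike pnoca, pnocb kept its call in each fit without 1 PEC library, and was at -4.30 (adjusted p = 0.00100) without wild-type replicate 3.

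In EECs 4 of the 7 precursors were tested, of which penkb and pdyn rose and none fell. Among all genes tested, 1.82% were called higher and 2.36% lower. The median change of the 4 was 0.89 against 0.02 over all genes. That median is the midpoint of penkb, which rose, and penka, whose change was negative and not called. pdyn was at 0, 0.298, 0 and 0.0774 CPM in wild-type EECs, at or near the detection limit, and at 6.90, 6.42 and 6.87 CPM in mutant EECs (adjusted p = 0.0121). Its fitted change of 6.11 is no measure of size, since 2 of the 3 wild-type libraries in the fit had no count: it ran from 5.39 to 11.03 in the 6 fits without 1 library, highest without wild-type replicate 2, the one with counts, and it was called in all 6. Without mutant EEC replicate 1, chosen after the data were seen, pnoca was also called lower. pomca and pomcb, which encode the precursor of endorphin and melanocortins, were too low to be tested in either tissue, with at most 0.443 CPM of pomca and 2.87 CPM of pomcb in any library.

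Of the 5 receptor genes tested in PECs, 3 rose, 1 fell and 1 was not called, with a median change of 1.88, where 5.43% of all genes tested were called higher and 5.74% lower. oprk1, the kappa receptor gene, rose by 1.98 ± 0.38 (adjusted p = 0.00598), from 5.03, 2.74 and 6.45 CPM to 29.4, 14.9 and 20.0 CPM. oprl1, the nociceptin receptor gene, rose by 1.88 ± 0.50 (adjusted p = 0.0380), from 0.938, 2.98 and 5.14 CPM to 8.93, 14.1 and 14.6 CPM. Neither gene's groups overlapped, which held for 24.6% of all genes tested in PECs (16.1% with the mutants higher). The delta receptor gene oprd1a (listed as OPRD1) rose by 2.90 ± 0.89 (adjusted p = 0.0700) to 1.52 to 1.89 CPM, and the mu receptor gene oprm1 fell by 2.29 ± 0.69 (adjusted p = 0.0650) to 0.247 to 0.401 CPM, both at levels of few counts. The second delta receptor gene, oprd1b, was at 9.41 to 34.3 CPM in wild-type and 31.0 to 48.9 CPM in mutant PECs and was not called (0.95 ± 0.38, adjusted p = 0.167).

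How firm these receptor calls are varied. oprk1 was called in all 6 fits without 1 PEC library but not in one fit of 12 libraries (adjusted p = 0.111), where oprd1a was not called either (0.122). oprl1 missed the threshold without wild-type replicate 1 (adjusted p = 0.10001) or mutant replicate 2 (0.123). oprd1a missed it without wild-type replicate 1 (0.124) or any of mutant replicates 1 (0.181), 2 (0.145) and 3 (0.111). oprm1 missed it without wild-type replicate 2 (0.244) or 3 (0.101) or without mutant replicate 1 (0.164), 2 (0.176) or 3 (0.112).

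In EECs none of the 5 receptor genes was called with edgeR, where 4.18% of all genes tested were. The median change of the 5 was -0.41. Of the 5, oprk1 was the only one at an unadjusted p under 0.05 in edgeR and the only one called by DESeq2. oprk1 was at 0.0813, 0.446, 0 and 0 CPM in wild-type EECs and at 3.22, 3.48 and 0.758 CPM in mutants (adjusted p = 0.121). The level of oprl1 was 44.4 to 62.6 CPM in wild-type and 61.5 to 84.8 CPM in mutant EECs (0.19 ± 0.23, adjusted p = 0.768), and that of oprd1b 69.2 to 96.0 CPM and 52.5 to 68.4 CPM (-0.46 ± 0.23, adjusted p = 0.395). Both were higher in wild-type EECs than in wild-type PECs, by 4.39 ± 0.48 for oprl1 (adjusted p = 3.10e-05) and by 2.21 ± 0.37 for oprd1b (adjusted p = 8.46e-04). No receptor gene passed the test of the interaction in edgeR (4 of 5 had an unadjusted p under 0.05, and DESeq2 called oprd1a and oprl1), so a difference between the tissues in their response was not shown.

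**Figure D5:**
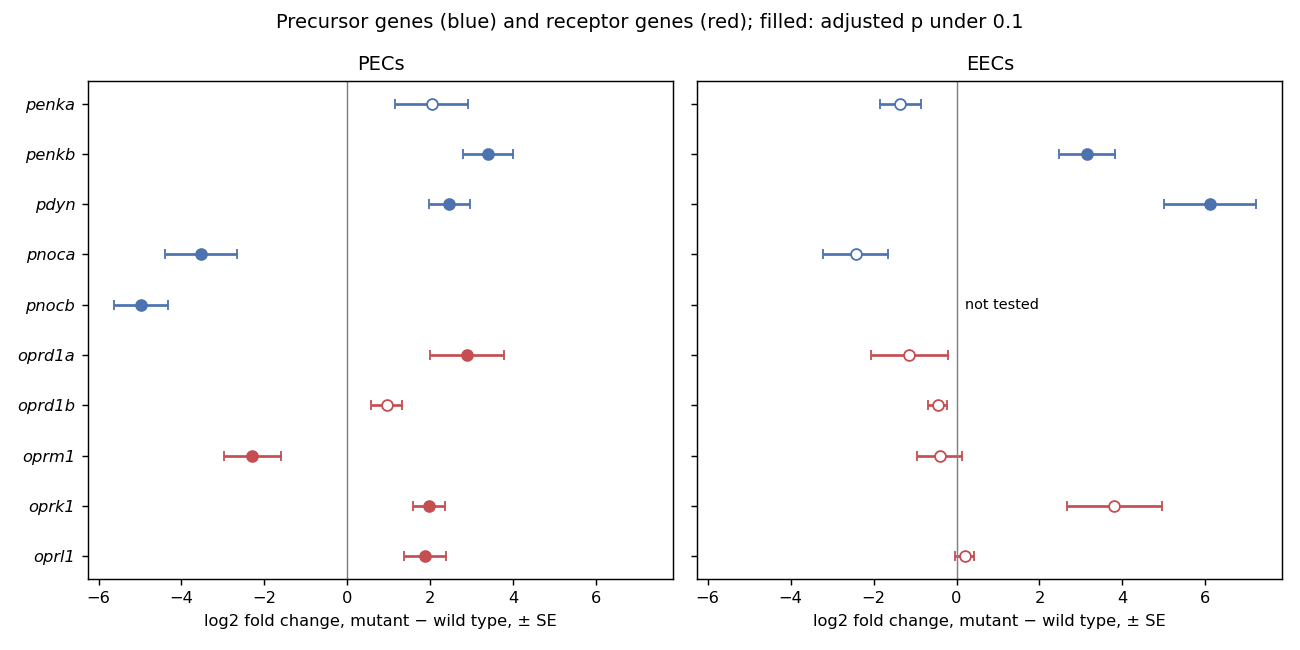
Log2 fold change (mutant against wild type, with its standard error) of opioid precursor genes (blue) and receptor genes (red) in PECs and EECs, filled where the adjusted p was under 0.1. penkb and pdyn are filled above 0 in both tissues, and pnoca and pnocb lie below 0 in PECs. Of the 5 receptor genes, 4 are filled in PECs and none in EECs. The shares called over all genes tested were 11.2% in PECs and 4.18% in EECs. No receptor gene passed the interaction test in edgeR.

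The enzymes that cut and finish opioid precursors were mostly not called. Of the 7 processing genes tested in PECs, 1 rose and 1 fell, and of 6 in EECs, 1 fell. The shares called over all genes tested were 11.2% in PECs and 4.18% in EECs. pcsk2, a prohormone convertase that releases enkephalins, fell in EECs by 1.59 ± 0.26 (adjusted p = 0.00649), from 198, 240.1 and 206 CPM to 96.3, 75.2 and 51.4 CPM. Wild-type EEC replicate 4 had only 10.8 CPM of pcsk2, and with it the fall was not called (-1.19, adjusted p = 0.575), nor was it in one fit of 12 libraries (-1.57, adjusted p = 0.368). In PECs pcsk2 had 55.8, 101 and 715 CPM in wild type and 102, 49.8 and 19.3 CPM in mutants (-2.42 ± 0.74, adjusted p = 0.0687), and its high value was again in wild-type replicate 3, without which the change was -0.84 (adjusted p = 0.322). The call was also lost with DESeq2 (adjusted p = 0.185) and without wild-type replicate 2 (0.195) or mutant replicate 1 (0.101), 2 (0.339) or 3 (0.183). Of the 6 other settings that left out no library, only 2 kept the call, with adjusted p-values of 0.0648 to 0.459 over the 6. pam, which amidates peptide ends, rose in PECs by 1.27 ± 0.40 (adjusted p = 0.0763), with overlapping groups, and was not called without wild-type replicate 1 (0.256) or 2 (0.278) or mutant replicate 1 (0.208) or 2 (0.303).

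Likeness of profile was measured over the 13 libraries as the root mean square difference of centred log2 CPM, and the 5 nearest of 21233 genes are given for each member. For penka these were zgc:123284, si:ch73-359m17.9, plac8.1, vipb (a VIP neuropeptide gene) and BX908782.3, at 1.29 to 1.53 log2 units where the median gene was at 6.18. For penkb they were pdgfba (a platelet-derived growth factor gene), fbxl8, loxl2b, tlr5b and scarf1, at 0.94 to 0.97 against a median of 2.17. For pnoca they were TTC28, si:ch73-204p21.5, trim55a, ENSDARG00000078366 and CABZ01020835.1, at 1.05 to 1.24 against a median of 2.39. Without wild-type EEC replicate 4, the nearest 5 kept 4 of these genes for penka, 4 for penkb and 2 for pnoca.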

How the data were processed

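GFP+ cells were sorted in repeated rounds, their total RNA was copied by the Smart-seq2 protocol, and paired ends of Nextera-XT libraries were sequenced. Per the labels, the authors mapped reads with STAR 2.5.4b to GRCz11 and deposited whole-number counts per gene, 1 library per file and not normalized. Which strand was counted is not given in the sources used here. No molecular identifiers were used, so reads are not independent molecules.

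Differences were tested on the deposited counts with edgeR 4.0.16 (R 4.3.3, limma 3.58.1): TMM, filterByExpr, robust quasi-likelihood F test, Benjamini-Hochberg adjustment over all tested genes, threshold 0.1. Exact permutation tests used scipy 1.17.1. The fits were tested on simulated data. Alternatives were DESeq2 1.42.0, RLE, other filters, a fit of 12 libraries, a replicate block, all 4 wild-type EEC libraries and leaving out each replicate. Symbols came from the study's tables for 5831 IDs and a reference list for 23437.

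The members, gene lists and tests were chosen with earlier results of these data known. Named were the members, pax6b, the gene lists, gcga, gcgb and arxa, markers where their list is described, the 5 nearest profiles per member, and the neighbours of the members, which were added later. Wild-type EEC replicate 4 was kept out of the tests, since the study compared triplicates. Symbols of the lists that matched no ID (8) were not used here.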

Additional observations from a re-analysis of the deposited data

Results flagged for a closer look

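Among 48 genes (members, opioid gene lists, neighbours, pax6b, gcga, gcgb and arxa), 37 reached 1 CPM in wild-type EECs, and 1 had a library past Dixon's critical value, which sets the gap to the nearest library against the range of the group: pam, at 666 CPM in replicate 3 against 426 to 447 CPM, with a gap of 0.914 of the range. The low pcsk2 value of replicate 4, with a gap of 0.818 of the range, fell short of it. Chance gives such a gap in about 1 of 20 groups of 4.

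The change after pax6b loss differed between EECs and PECs, by the interaction test in edgeR with adjusted p under 0.1, for 6 of these genes. Over all genes tested, 3.58% of 21067 passed. None of the 6 was an opioid precursor or receptor, though DESeq2 called 2 precursors and 2 receptors. The beta-arrestin gene arrb1 was at 0.808 to 1.26 CPM in wild-type and 25.3 to 39.9 CPM in mutant PECs. In EECs it was at 0.195 to 0.714 CPM in wild type and 0.803 to 1.89 CPM in mutants. Its change there was not called (1.81 ± 0.86, adjusted p = 0.365). The change in EECs minus the change in PECs was -2.89 ± 0.69 on the log2 scale (adjusted p = 0.0345). KCNJ3 (ENSDARG00000062217), a gene for a potassium channel that Gi/o proteins open, fell in EECs (-2.47 ± 0.43, adjusted p = 0.0100) and was at 0.05 ± 0.36 in PECs, a difference of -2.50 (adjusted p = 0.0276). The difference was -3.42 for sdr16c5a (adjusted p = 0.0369), 1.86 for znf395a (adjusted p = 0.0326), 2.40 for gcgb (adjusted p = 0.0545) and -1.58 for arxa (adjusted p = 0.0781).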

How the results depend on the processing

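penkb kept its direction and its call for pax6b loss in both tissues under all 12 alternatives in PECs and all 13 in EECs. For pnoca in PECs the call was lost with no filter on low counts (-3.60, adjusted p = 0.356) and in one fit of 12 libraries (-3.56, adjusted p = 0.128). DESeq2 called penka (-1.35) and pnoca (-2.42) in EECs and the penka interaction (-3.39). penkb between wild-type tissues was called with DESeq2 (1.96), one fit of 12 libraries (2.02) and all 4 wild-type EEC libraries (2.05), and was not tested at 1 CPM in 3 samples. pnoca between wild-type tissues was not called with no filter (-3.55), all 4 libraries (-2.30) or a replicate block (-2.25), and between mutant tissues in one fit of 12 libraries (-2.28). The cause of these shifts was not tested.

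Replicate numbers gave no sign of pairing. After each gene's log2 CPM was centred on its group mean, same-numbered wild-type and mutant samples of a tissue correlated at -0.11 to 0.04. With 3 libraries per group this check is weak, so the block rests on a number alone. With it, 1177 genes were called for PECs in place of 2089, the penkb interaction turned to 0.38, and oprd1a, oprm1, pcsk2 and pam were not called in PECs (adjusted p 0.151, 0.214, 0.409 and 0.229). For EECs, 780 genes were called, 1705 with DESeq2 and 477 at an adjusted p of 0.05. For the interaction these numbers were 755, 1379 and 480.

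Without 1 library, changes ran from 1.45 to 3.77 (penka, PECs), -4.06 to -1.21 (pnoca, PECs), -3.70 to -1.73 (pnoca, EECs), 1.60 to 2.51 (penkb, wild-type tissues), -4.15 to -1.16 (pnoca, wild-type tissues), -5.19 to -2.80 (penka interaction), -0.69 to 0.62 (penkb interaction), -1.18 to 1.88 (pnoca interaction) and -1.21 to 1.69 (PEC ratio of penkb to penka). Calls ran from 1148 to 3873 in PECs (3873 without wild-type replicate 3), 391 to 678 in EECs and 503 to 1017 for the interaction. Depth limits penka and penkb in wild-type PECs, where 6 to 81 counts carry each value.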

Other observations

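In the assembly GRCz12tu, which is not the build used for mapping, penka lies between sdr16c5a and bpnt2, penkb before sdr16c5b, and pnoca after znf395a. sdr16c5a, a short-chain dehydrogenase/reductase gene, was at 30.3 to 54.6 CPM in wild-type and 3.92 to 7.27 CPM in mutant EECs, where it fell by 2.90 ± 0.35 (adjusted p = 0.00116), and was higher in wild-type EECs than in wild-type PECs by 6.64 ± 0.42 (adjusted p = 5.06e-07). bpnt2 fell in EECs by 0.97 ± 0.27 (adjusted p = 0.0965). sdr16c5b was at 38.7 to 46.3 CPM in wild-type and 39.8 to 74.4 CPM in mutant EECs (0.33 ± 0.26, adjusted p = 0.628), where penkb rose. znf395a fell in PECs by 1.05 ± 0.28 (adjusted p = 0.0371), as pnoca did, and had 0.81 ± 0.30 in EECs (adjusted p = 0.227).

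Of the 14 genes of Gi/o signalling tested in PECs, 1 rose (arrb1, 4.75 ± 0.37, adjusted p = 5.31e-06) and 3 fell: gnai1 by 1.02 ± 0.27 (adjusted p = 0.0372), gnai2a by 0.94 ± 0.28 (adjusted p = 0.0606) and gnao1b by 1.79 ± 0.51 (adjusted p = 0.0520), all of which encode alpha subunits. Among the wild-type PEC libraries, replicate 3 held the most gnai1, gnai2a and gnao1b, at 363, 285 and 13.1 CPM. Without that library, 2 of 15 rose and 3 fell, in a fit that called 3873 of all 19217 genes tested. In EECs 1 of 14 fell, the KCNJ3 gene named above. Over all genes tested, 11.2% were called in PECs and 4.18% in EECs. The list's median change was -0.05 in PECs and -0.0020 in EECs, beside 0.02 over all genes in each.

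Among genes for peptide degradation, 1 of 5 rose in PECs, an ANPEP gene (ENSDARG00000036809) at no more than 1.77 CPM, and none of 5 was called in EECs with edgeR or DESeq2, where 3 had an unadjusted p under 0.05 in edgeR. Over all genes tested, 5.43% were called higher in PECs. anpepb, an aminopeptidase N gene, was at 461 to 832 CPM in wild-type and 214 to 499 CPM in mutant EECs (-0.88 ± 0.31, adjusted p = 0.187) and at or below 1.17 CPM in PECs.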
